A study of Solanum lycopersicum with 12 samples.

Results

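Transcripts of 4 genes that make or remove the plant hormone abscisic acid were followed in tomato fruit. The synthesis genes were NCED1 (Solyc07g056570.1, chromosome 7) and NCED2 (Solyc08g016720.1, chromosome 8). The breakdown genes were CYP707A1 (Solyc04g078900.3, chromosome 4) and CYP707A2 (Solyc08g005610.3, chromosome 8). They were set by identifier and not by a cut-off on level, though with earlier results of these data known. They are 4 of the 34075 genes in the deposited count table. All 4 passed the low-count filter, which left 20070 genes for testing. RNA was sequenced from samples labelled only as fruit, from cultivar Ailsa Craig plants grown in a climate-controlled greenhouse. In the slnor mutant, made with CRISPR in the Ailsa Craig background, the altered gene is NOR, which encodes a NAC transcription factor that fruit require to ripen normally. Wild type (WT) is the same cultivar without that mutation. The 4 groups, of 3 libraries each, were slnor 7 days after breaker, WT 7 days after breaker, slnor at breaker and WT at breaker. Breaker usually names the stage when ripening colour has just begun to show on a fruit that was green until then. The sample titles give only the stage name, and not how breaker was set in slnor fruit. The sources used here do not give the mutant allele, the number of mutant lines or the number of plants behind a library, so the p-values speak only for the spread among these libraries, which may be technical.

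Abscisic acid is made from carotenoids. The NCED enzymes are dioxygenases that cleave epoxycarotenoids in the plastid, the step generally taken as limiting for synthesis, and further enzymes turn the product into the hormone in the cytosol. The CYP707A enzymes are cytochrome P450 hydroxylases that inactivate it, and a separate glucosyltransferase route stores it as a conjugate. In tomato fruit the hormone is known to climb around the onset of ripening, and NCED1 is the synthesis gene best known for that.

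Library totals lay between 50714230 and 69124795 counts. NCED1 and CYP707A2 had 6768 to 37748 counts per library, and NCED2 and CYP707A1 had 140 to 665, so counting error weighs more on the second pair. The NOR transcript itself was present in every library, at 515 to 577 CPM in slnor and 459 to 480 CPM in WT 7 days after breaker, and at 776 to 896 CPM in slnor and 955 to 978 CPM in WT at breaker. These levels do not check the genotype, since a small mutation can leave the transcript in place. CPM express a gene's counts relative to the size of its library, with library sizes scaled by the trimmed mean of M values (TMM). Of 6 identifiers listed as seed markers, 5 had counts in every group and Solyc02g086490.3 was at 0 in all 12 libraries. Their summed level was 3.08 to 3.55 CPM in slnor and 16.6 to 20.8 CPM in WT at the later stage, and 9.79 to 10.4 CPM in slnor and 70.2 to 78.2 CPM in WT at breaker. In WT that sum was carried by Solyc06g060840.1, at 14.2 to 16.4 CPM at the later stage and 67.5 to 74.7 CPM at breaker. In slnor this marker was at 0.179 to 0.676 CPM at the later stage and 6.25 to 7.32 CPM at breaker. Its log2 fold change between genotypes was −5.18 later (adjusted p = 3.21e-13) and −3.40 at breaker (adjusted p = 2.89e-13, edgeR quasi-likelihood test). Not all 5 markers with counts went that way. Between genotypes 4 were lower and 1, Solyc03g112440.1, was higher in slnor at the later stage (log2 fold change 1.09, adjusted p = 4.89e-05), and 1 was lower and 4 did not pass at breaker. Over the 7 days 2 rose and 2 fell in WT, while 3 fell and none rose in slnor. The 2 that rose in WT were Solyc09g072560.4 (mean 0.181 CPM at breaker and 0.890 CPM later) and Solyc09g065470.3 (0.0550 and 0.664 CPM). The WT median log2 fold change of 2.16 was that of Solyc09g090150.4 (0.0904 and 0.408 CPM), which did not pass. These 3 markers averaged under 1 CPM in every group, so their changes lie near the floor. The 4 listed green-tissue markers, all with counts in every group, summed to 252 to 263 CPM in slnor and 217 to 224 CPM in WT at the later stage, and to 593 to 653 CPM in slnor and 771 to 829 CPM in WT at breaker. The later sum was carried by Solyc02g065400.3, which was lower in slnor (171 ± 6.07 CPM, against 185 ± 1.29 CPM in WT, log2 fold change −0.12, adjusted p = 0.0125). The other 3 green-tissue markers were higher in slnor at that stage, by at least 0.94 on the log2 scale (median of the 4 markers 1.13), and at breaker 1 of the 4 was higher and 3 were lower. Over the 7 days 3 fell and 1 did not pass in slnor, and all 4 fell in WT. Both marker lists thus had calls for genotype and for stage, though not all in 1 direction. Of all genes tested, 49.3% to 65.3% were called (adjusted p under 0.05) in these comparisons. The marker counts over both directions are not set apart from those shares. In 1 direction, 27.4% of all genes were lower in slnor at the later stage and 32.1% fell in WT. The marker counts were not tested against these shares, and the part of the markers in the results below was not tested.

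NCED1, the synthesis gene best known in fruit, was higher in slnor than in WT at the later stage and fell between the stages in both genotypes. Its levels 7 days after breaker were 273, 278 and 255 CPM in slnor, against 186, 178 and 182 CPM in WT. Its levels at breaker were 479, 406 and 510 CPM in slnor, against 431, 459 and 467 CPM in WT. The slnor libraries were all above the WT libraries at the later stage, while at breaker the genotypes overlapped and slnor replicate 2 was the lowest of all 6. In order, the group means were 465 ± 53.1 CPM in slnor at breaker, 452 ± 19.0 in WT at breaker, 269 ± 11.8 in slnor at the later stage and 182 ± 4.26 in WT at the later stage (SD, n = 3 each). The first and second in that order did not differ beyond their spread (log2 fold change 0.04, 95% interval −0.09 to 0.17, adjusted p = 0.625, edgeR quasi-likelihood test with Benjamini-Hochberg adjustment over all genes tested). Since these are bulk samples, fewer cells using a gene and less RNA per cell cannot be told apart. The breaker result depends on the scaling and on that single library. Scaled by library totals alone, without TMM, the log2 fold change was 0.21 (adjusted p = 0.00497), and without slnor replicate 2 it was 0.11 (adjusted p = 0.0461).

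Over the 7 days, the later NCED1 group was 1.73-fold lower than breaker in slnor (log2 fold change −0.79, SE 0.062, adjusted p = 1.18e-08) and 2.49-fold lower in WT (−1.31, SE 0.063, adjusted p = 8.82e-12). The stage change itself differed between the genotypes, by 0.52 on the log2 scale (SE 0.087, adjusted p = 1.22e-04). Between genotypes, NCED1 was 1.48-fold higher at the later stage in slnor than in WT (log2 fold change 0.56, SE 0.062, adjusted p = 7.04e-07).

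**Figure D1:**
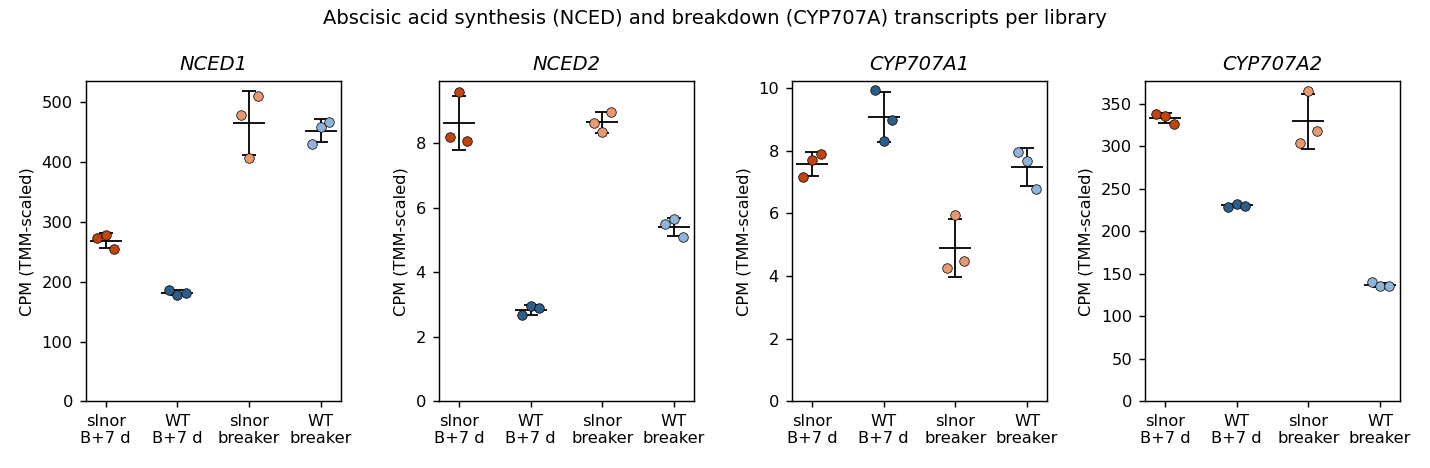
CPM of the 4 genes in each library (points), with the mean and SD of the 3 libraries of a group (black bars); each panel has its own axis from 0, and B+7 d is 7 days after breaker. NCED1 overlaps between genotypes at breaker, NCED2 is at 8.07 to 9.59 CPM in all 6 slnor libraries, and CYP707A2 is at 304 to 365 CPM in slnor against 136 to 140 CPM in WT at breaker.

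NCED2, the second dioxygenase gene, was far less abundant and was higher in slnor at both stages. Its later levels were 8.21, 9.59 and 8.07 CPM in slnor and 2.67, 2.95 and 2.89 CPM in WT. At breaker they were 8.63, 8.34 and 8.98 CPM in slnor and 5.51, 5.65 and 5.11 CPM in WT. Every slnor library was above every WT library of either stage. The gene was 3.03-fold higher in slnor at the later stage (log2 fold change 1.60, SE 0.10, adjusted p = 9.04e-10) and 1.60-fold higher at breaker (0.67, SE 0.10, adjusted p = 2.38e-05). In WT it fell over the 7 days by 0.93 on the log2 scale (SE 0.11, adjusted p = 7.25e-07). In slnor it averaged 8.62 ± 0.839 CPM at the later stage and 8.65 ± 0.320 CPM at breaker, a log2 fold change of −0.01 with a 95% interval of −0.21 to 0.20 (adjusted p = 0.965). The stage change differed between genotypes by 0.93 on the log2 scale (SE 0.14, adjusted p = 5.94e-05).

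CYP707A1, the less abundant hydroxylase gene, was the only member of the 4 with a lower level in slnor that passed the test. Its breaker levels were 4.25, 5.96 and 4.49 CPM in slnor and 7.96, 7.67 and 6.79 CPM in WT. Its later levels were 7.15, 7.69 and 7.89 CPM in slnor and 9.92, 8.32 and 8.98 CPM in WT. All slnor libraries were below all WT libraries of the same stage, by a narrow margin at the later stage. The difference at breaker was 1.52-fold (log2 fold change −0.61, SE 0.12, adjusted p = 5.75e-04). That at the later stage did not pass (−0.26, SE 0.12, adjusted p = 0.0773), but passed when only the 6 libraries of that stage were fitted (−0.25, adjusted p = 0.0351). CYP707A1 rose 1.55-fold over the 7 days in slnor (0.63, SE 0.12, adjusted p = 3.78e-04). In WT the log2 fold change of 0.28 did not pass (SE 0.12, adjusted p = 0.0520), and the difference between both stage changes was 0.35 (SE 0.17, adjusted p = 0.118). Slnor replicate 2 at breaker was the highest of its group. Without it the interaction passed at 0.53 (adjusted p = 0.0107), the genotype difference at the later stage at −0.26 (adjusted p = 0.0357) and the change in WT at 0.26 (adjusted p = 0.0291). Without WT replicate 2 of the later stage the change in WT was 0.34 (adjusted p = 0.0392). In order of mean level, the later WT group (9.07 ± 0.804 CPM) came before the later slnor group (7.58 ± 0.382), WT at breaker (7.47 ± 0.608) and slnor at breaker (4.90 ± 0.924). The libraries of later slnor and of WT at breaker overlapped.

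CYP707A2, the abundant hydroxylase gene, had the largest difference between genotypes at breaker among the 4 genes. There it stood at 304, 365 and 318 CPM in slnor and at 140, 136 and 136 CPM in WT. At the later stage it stood at 338, 335 and 326 CPM in slnor and at 229, 232 and 230 CPM in WT. The slnor libraries of either stage lay above all WT libraries, and the lowest group was WT at breaker. CYP707A2 was 2.40-fold higher in slnor at breaker (log2 fold change 1.26, SE 0.051, adjusted p = 1.74e-12), a change larger in size than that of 89.0% of all genes tested. It was 1.44-fold higher at the later stage (0.53, SE 0.050, adjusted p = 8.90e-08). In WT it rose 1.68-fold over the 7 days (0.75, SE 0.050, adjusted p = 7.96e-10). In slnor it averaged 333 ± 6.43 CPM at the later stage and 329 ± 32.1 CPM at breaker (log2 fold change 0.02, 95% interval −0.09 to 0.12, adjusted p = 0.795), and without slnor replicate 2 at breaker this became 0.10 (adjusted p = 0.0273). The stage change was smaller in slnor than in WT by 0.73 on the log2 scale (SE 0.070, adjusted p = 2.63e-07).

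**Figure D2:**
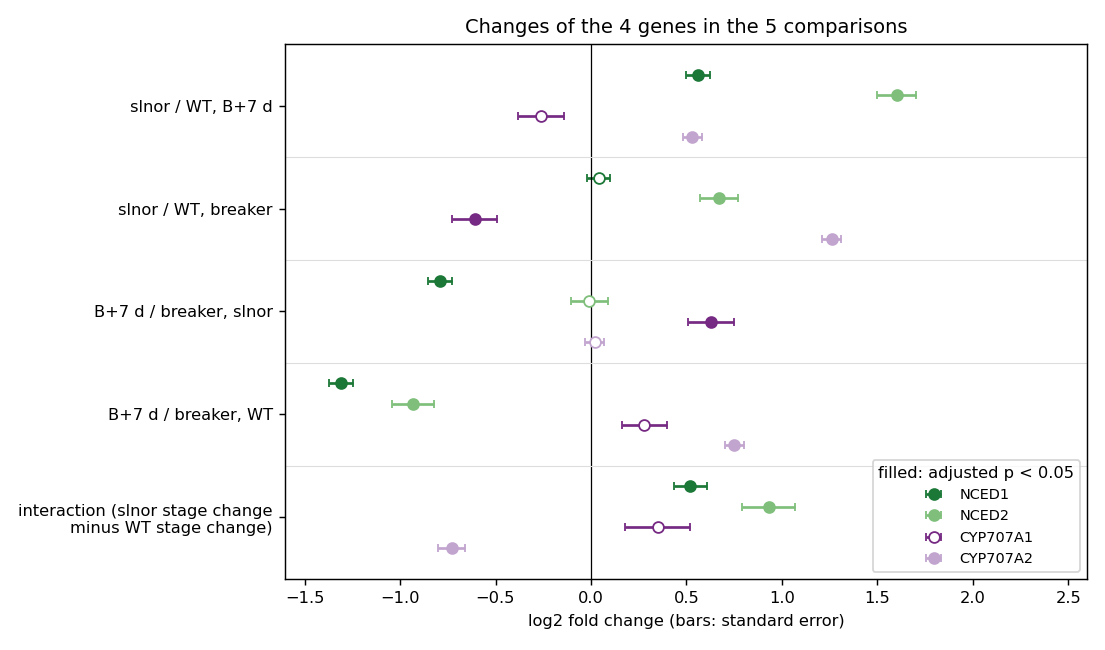
Log2 fold change (x axis) of the 4 genes in the 5 comparisons (rows), with standard errors as bars and filled points for an adjusted p under 0.05 in edgeR's quasi-likelihood test. Green points are synthesis genes and purple points breakdown genes; the points at 1.60 for NCED2 at the later stage and 1.26 for CYP707A2 at breaker lie farthest to the right, and NCED1 in WT, at −1.31, farthest to the left.

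Of the 4 genes, 3 were higher in slnor than in WT 7 days after breaker (NCED1, NCED2 and CYP707A2) and CYP707A1 did not pass, where 55.8% of all genes tested were called (28.5% higher and 27.4% lower). At breaker NCED2 and CYP707A2 were higher, CYP707A1 was lower and NCED1 did not pass, where 49.3% of all genes were called (25.6% higher and 23.7% lower). Over 7 days in slnor, CYP707A1 rose, NCED1 fell, and NCED2 and CYP707A2 did not pass, where 52.2% of all genes were called (26.2% rose and 26.0% fell). Over 7 days in WT, CYP707A2 rose, NCED1 and NCED2 fell and CYP707A1 did not pass, where 65.3% of all genes were called (33.2% rose and 32.1% fell). The stage change differed between genotypes for NCED1 and NCED2 (higher in slnor) and CYP707A2 (lower in slnor), where 42.2% of all genes were called (21.8% higher and 20.4% lower). With so many genes called in each comparison, a count of 2 or 3 among 4 genes is not set apart from the background. The genotype comparisons share no library, but each stage comparison shares its libraries with both of them.

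Summed per length, which lets the more abundant gene of each pair dominate, synthesis and breakdown transcripts were closer to balance at the later stage than at breaker, and at breaker closer to balance in slnor than in WT. FPKM, the authors' deposited values scaled by gene length and library total, were summed here for NCED1 with NCED2 and for CYP707A1 with CYP707A2. At breaker the summed synthesis level was 283, 243 and 298 FPKM in slnor and 224, 240 and 243 FPKM in WT. The summed breakdown level was 163, 198 and 169 FPKM in slnor and 69.4, 67.6 and 67.3 FPKM in WT. So the breakdown sums of the genotypes lay far apart at breaker, while the synthesis sums touched. Unlike the CPM, these sums are not TMM-scaled. At breaker NCED1 averaged 270 FPKM in slnor and 233 FPKM in WT, but 465 and 452 CPM. CYP707A2 averaged 174 FPKM in slnor and 64.1 FPKM in WT, and 329 and 137 CPM. At the later stage the synthesis sum was 153, 158 and 143 FPKM in slnor and 96.4, 92.3 and 94.0 FPKM in WT. The breakdown sum was 172, 171 and 166 FPKM in slnor and 112, 112 and 111 FPKM in WT. Both sums were then higher in every slnor library than in every WT library.

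The ratio of the synthesis sum to the breakdown sum, taken within each library and so not affected by scaling between libraries, was 1.74, 1.23 and 1.76 in slnor at breaker and 3.23, 3.54 and 3.61 in WT at breaker. At the later stage it was 0.892, 0.919 and 0.865 in slnor and 0.864, 0.823 and 0.844 in WT. Every breaker library thus held more synthesis than breakdown transcript and every later library less. The mean log2 ratio in slnor minus that in WT was −1.15 at breaker and 0.08 at the later stage. The later stage minus breaker was −0.80 in slnor and −2.04 in WT. These ratios are a description of 4 chosen genes and carry no test. They are set almost wholly by NCED1 and CYP707A2. NCED2 made up 3.03% to 3.47% of the synthesis sum in slnor and 1.46% to 1.70% in WT at the later stage, and 1.80% to 2.09% in slnor and 1.13% to 1.31% in WT at breaker. CYP707A1 made up 2.34% to 2.67% of the breakdown sum in slnor and 3.90% to 4.66% in WT at the later stage, and 1.56% to 1.81% in slnor and 5.35% to 6.05% in WT at breaker. The pattern does not hold where both genes of a pair are given equal weight, as means of log2 values. The mean log2 ratio was then 0.01 in slnor and −0.93 in WT at the later stage, and 0.74 in slnor and 0.71 in WT at breaker. On that scale WT was farther from balance at the later stage than at breaker, and slnor was no closer to it than WT at breaker. The difference between genotypes became 0.94 at the later stage and 0.04 at breaker.

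**Figure D3:**
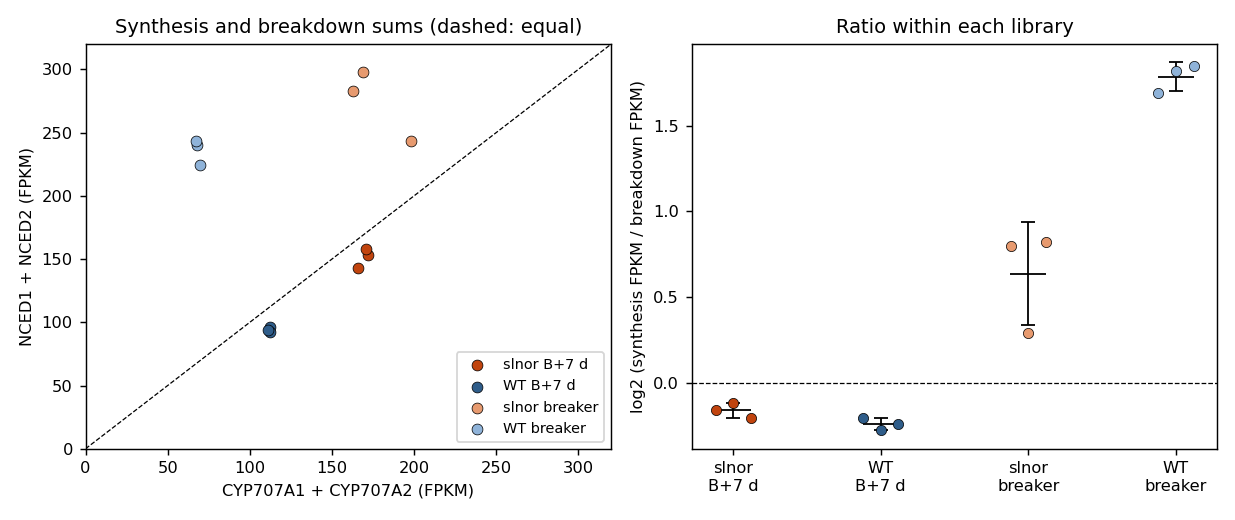
Left, summed NCED1 and NCED2 (y axis, FPKM) against summed CYP707A1 and CYP707A2 (x axis, FPKM) in each of the 12 libraries, with equality dashed. Right, the log2 ratio of both sums per library, with group mean and SD; WT at breaker lies highest (ratios 3.23 to 3.61), slnor at breaker next (1.23 to 1.76), and all 6 later libraries below 0 (0.823 to 0.919).

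Per length (mean FPKM), NCED1 ranked 336 in slnor and 429 in WT among the 20070 genes tested at breaker, the highest of the 4 members. After 7 days its rank was 806 in slnor and 1334 in WT. CYP707A2 stood at rank 694 in slnor and 1137 in WT at the later stage, and at rank 629 in slnor and 1994 in WT at breaker. NCED1 and CYP707A2 thus changed places between stages in both genotypes. NCED2, at 1.41 to 5.47 FPKM over all libraries, and CYP707A1, at 2.54 to 5.20 FPKM, ranked between 11768 and 14657 in the 4 groups.

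The wider pathway was read from 43 further identifiers, taken from published nomenclature for other synthesis, breakdown and conjugation steps, receptors, phosphatases, kinases and transcription factors. Of these 40 had at least 1 count and 38 were tested, and RefSeq names 10 of them by symbol. In the comparison of genotypes at the later stage, 18 of the 38 were higher and 8 lower in slnor, with a median log2 fold change of 0.11 against 0.00 for all genes. At breaker 12 were higher and 11 lower, with a median of −0.07 against 0.02 for all genes. Over 7 days 14 rose and 16 fell in slnor, and 8 rose and 16 fell in WT. The interaction was called for 19, of which 13 were higher and 6 lower. The shares of all genes called in each comparison are those given above for the 4 members.

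Of the 8 tested identifiers for other metabolic steps, 5 were higher and 2 lower in slnor at the later stage, and 3 were higher and 5 lower at breaker, or 3 and 3 with library totals alone. Over all genes tested, 55.8% were called at the later stage and 49.3% at breaker. ZEP, the zeaxanthin epoxidase gene that supplies epoxycarotenoids, averaged 217 ± 9.86 CPM in slnor and 142 ± 1.78 CPM in WT at the later stage. At breaker it averaged 135 ± 10.5 CPM in slnor and 79.4 ± 4.09 CPM in WT. It was thus higher in slnor at both stages (log2 fold change 0.61, adjusted p = 2.62e-08, and 0.77, adjusted p = 2.30e-09), and rose over the 7 days in both genotypes. VDE, the violaxanthin de-epoxidase gene that acts in the opposite direction, averaged 15.6 ± 1.49 CPM in slnor and 41.8 ± 0.524 CPM in WT at breaker (log2 fold change −1.42, SE 0.075, adjusted p = 6.76e-11). At the later stage it averaged 14.2 ± 0.268 CPM in slnor and 10.2 ± 1.01 CPM in WT (0.47, SE 0.079, adjusted p = 7.90e-05). The sign of the genotype difference thus turned between stages for VDE, with an interaction of 1.89 (SE 0.11, adjusted p = 4.66e-10).

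FLACCA, whose product activates the molybdenum cofactor of the aldehyde oxidase in the last synthesis step, was lower in slnor at both stages. It averaged 37.4 ± 0.361 CPM in slnor and 58.3 ± 1.44 CPM in WT at the later stage, and 20.7 ± 1.66 CPM in slnor and 27.8 ± 2.17 CPM in WT at breaker. The log2 fold changes were −0.64 (SE 0.060, adjusted p = 9.81e-08) and −0.43 (SE 0.064, adjusted p = 2.57e-05). UGT75C1, a glucosyltransferase gene of the storage route, was more abundant than any of the 4 members, at 612 to 666 FPKM in slnor and 524 to 530 FPKM in WT at the later stage. It was higher in slnor by 0.19 on the log2 scale at that stage (SE 0.058, adjusted p = 0.0112, or 0.0548 without slnor replicate 1 of that stage). At breaker it was lower by 0.30 (log2 fold change −0.30, SE 0.058, adjusted p = 3.40e-04), and with library totals alone the value was −0.13 (adjusted p = 0.0589). The interaction was 0.49 (SE 0.082, adjusted p = 1.29e-04). Solyc01g108210.4, which the tables used here do not name, averaged 5.30 ± 0.955 CPM in slnor and 1.86 ± 0.266 CPM in WT at the later stage, and 4.62 ± 0.677 CPM in slnor and 1.33 ± 0.345 CPM in WT at breaker. Its difference, of 1.51 and 1.81 on the log2 scale (adjusted p = 5.26e-06 and 1.29e-06), was the largest of this list in both comparisons. Solyc01g009230.4, also without a name there, averaged 17.2 ± 1.22 CPM in slnor and 9.31 ± 0.173 CPM in WT at the later stage (0.88, adjusted p = 2.64e-08), and stood at 18.4 to 21.3 CPM in slnor and 12.9 to 13.3 CPM in WT at breaker (0.61, adjusted p = 2.15e-06).

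**Figure D4:**
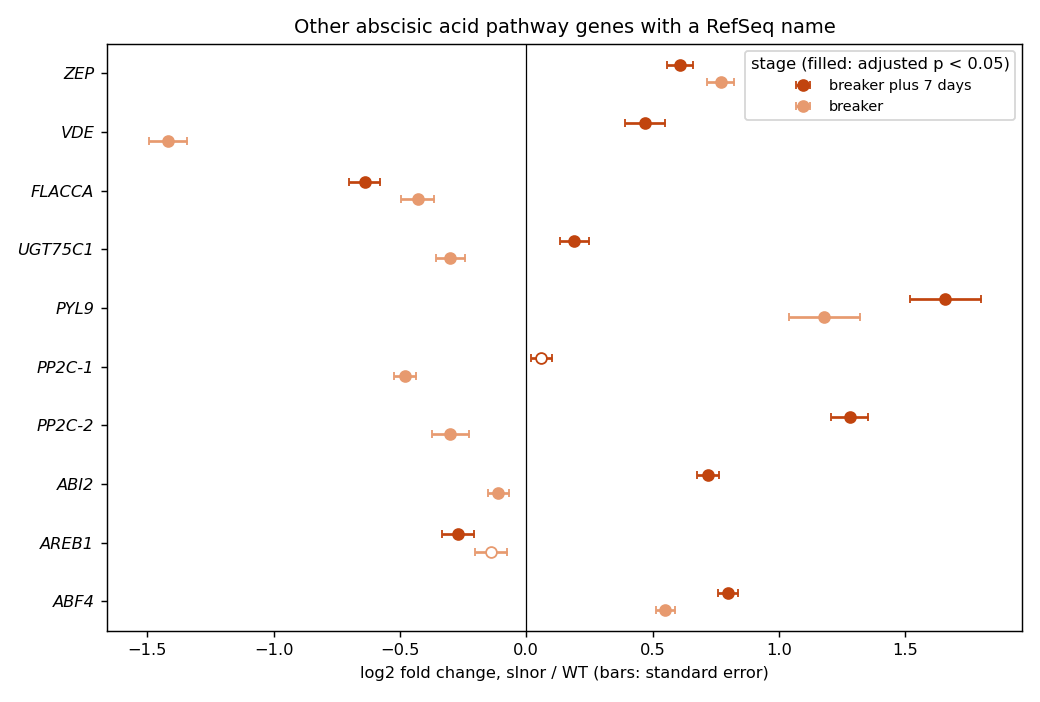
Log2 fold change of slnor over WT (x axis, bars are standard errors) for the 10 listed pathway genes with a RefSeq name, 7 days after breaker (dark) and at breaker (light), filled where the adjusted p was under 0.05. VDE, UGT75C1, PP2C-1, PP2C-2 and ABI2 lie below 0 at breaker and above 0 at the later stage, where PP2C-1 (0.06) is not filled; with library totals alone ABI2 at breaker lies at 0.06.

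Among signalling genes, 5 of 8 tested protein phosphatases 2C were higher in slnor at the later stage, where 28.5% of all genes were higher. At breaker 4 were lower, where 23.7% of all genes were lower, and 4 were not called. These phosphatases hold the pathway off until a receptor with bound hormone captures them. Another 1 was lower in slnor at the later stage, where the median log2 fold change of the 8 was 0.64. None was higher at breaker, and with library totals alone 2 were lower there. Over the 7 days 1 rose and 6 fell in WT, and 6 rose and 2 fell in slnor, or 5 and 2 with library totals alone. The interaction was higher for 7 and lower for 1, with a median of 0.80, and TMM, DESeq2 size factors and library totals alone gave those same counts. Of all genes tested, 33.2% rose and 32.1% fell in WT, and 26.2% rose and 26.0% fell in slnor. In the interaction 21.8% of all genes were higher and 20.4% lower. PP2C-2 averaged 87.9 ± 4.10 CPM in slnor and 36.3 ± 3.16 CPM in WT at the later stage (log2 fold change 1.28, SE 0.074, adjusted p = 1.99e-10). At breaker it averaged 53.7 ± 6.16 CPM in slnor and 66.2 ± 2.18 CPM in WT (−0.30, SE 0.073, adjusted p = 0.00239, or 0.150 with library totals alone). PP2C-1 averaged 106 ± 4.76 CPM in slnor and 148 ± 2.05 CPM in WT at breaker (−0.48, SE 0.042, adjusted p = 4.85e-08) and did not pass at the later stage (0.06, adjusted p = 0.233, or 0.00271 with library totals alone). The identifier with the largest change of the list, Solyc03g007230.4, which the tables used here do not name, averaged 58.3 ± 2.21 CPM in slnor and 4.18 ± 0.172 CPM in WT at the later stage, 14.0-fold higher (log2 fold change 3.80, SE 0.082, adjusted p = 9.77e-16). At breaker it averaged 45.6 ± 5.32 CPM in slnor and 49.4 ± 0.917 CPM in WT, where it did not pass (−0.12, SE 0.066, adjusted p = 0.165). A second identifier without a name in those tables, Solyc06g076400.3, averaged 11.1 ± 1.28 CPM in slnor and 3.05 ± 0.249 CPM in WT at the later stage (1.86, adjusted p = 5.17e-10). At breaker it averaged 8.96 ± 0.121 CPM in slnor and 9.99 ± 1.27 CPM in WT and did not pass (−0.16, adjusted p = 0.253), with an interaction of 2.02 (adjusted p = 2.19e-08). Solyc06g051940.4 was lower in slnor at breaker, at 5.74 ± 0.448 CPM in slnor and 9.29 ± 1.70 CPM in WT (−0.69, adjusted p = 0.00221), and fell over the 7 days in slnor (adjusted p = 3.14e-08) and in WT (adjusted p = 3.98e-10). ABI2, outside the rule for named genes and given because it completes the set with a RefSeq name, was higher in slnor at the later stage (0.72, SE 0.045, adjusted p = 5.29e-10). At breaker its value was −0.11 (SE 0.043, adjusted p = 0.0412), and 7 of the 12 fits that left out 1 library lost that call (adjusted p up to 0.154).

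Of 10 tested receptor identifiers, 5 were higher and 2 lower in slnor at the later stage, and 5 higher and 1 lower at breaker, or 7 and 1 with library totals alone. Over all genes tested, 55.8% were called at the later stage and 49.3% at breaker. The receptor, kinase and bZIP counts given here are not set apart from those shares. The total of 7 receptor identifiers called at the later stage dropped to between 3 and 4 when slnor replicate 1 or any single WT library of that stage was left out. PYL9, a receptor gene, averaged 11.5 ± 1.59 CPM in slnor and 3.66 ± 0.209 CPM in WT at the later stage (log2 fold change 1.66, SE 0.14, adjusted p = 1.62e-08). At breaker it averaged 8.99 ± 1.71 CPM in slnor and 3.98 ± 0.0460 CPM in WT (1.18, SE 0.14, adjusted p = 1.45e-06). The other receptor identifiers that the rule picks have no name in those tables. Solyc03g095780.3 averaged 0.400 ± 0.153 CPM in slnor and 1.30 ± 0.427 CPM in WT at breaker (−1.71, adjusted p = 0.00226). Solyc06g061180.2 was higher in slnor at the later stage (0.59, adjusted p = 0.0172), a call lost without WT replicate 1, WT replicate 3 or slnor replicate 3 of that stage (adjusted p up to 0.0801). Solyc01g095700.3 fell by 1.33 in slnor and by 1.22 in WT over the 7 days, and Solyc10g085310.1 fell by 1.31 in slnor and by 1.18 in WT. The interaction was lower for Solyc06g050500.2 (SE 0.18, adjusted p = 2.01e-04), which fell by 0.31 in slnor and rose by 0.69 in WT. The fall in slnor lost its call when any 1 slnor library was left out (adjusted p up to 0.115). The interaction was −0.44 for Solyc12g055990.2 (adjusted p = 7.36e-04). Of 8 kinase identifiers of the SnRK2 family, 2 were higher and 2 lower at the later stage and 3 higher and 1 lower at breaker, or 4 and 1, and 6 and 1, with library totals alone. None of the kinase identifiers has a name in those tables. Solyc02g090390.4 averaged 144 ± 1.15 CPM in slnor and 103 ± 0.828 CPM in WT at the later stage (0.48, adjusted p = 3.98e-08), and 161 ± 10.8 CPM in slnor and 106 ± 2.79 CPM in WT at breaker (0.60, adjusted p = 2.59e-09). Solyc01g108280.3 was higher in slnor at the later stage (0.32, adjusted p = 5.13e-06) and Solyc06g068450.3 at breaker (0.41, adjusted p = 1.65e-06), the second with an interaction of −0.52 (adjusted p = 1.01e-05). Over the 7 days Solyc08g077780.3 fell by 0.36 in slnor and by 0.29 in WT, and Solyc04g012160.4 fell by 0.28 in slnor and by 0.71 in WT. Solyc04g074500.3 rose by 0.32 in WT, with an interaction of −0.45 (adjusted p = 4.03e-04). Of 4 bZIP transcription factor identifiers, 1 was higher and 1 lower at the later stage and 1 higher at breaker. Without slnor replicate 3 of breaker, AREB1 was also called lower there. Without WT replicate 3 of breaker, a different identifier was called lower instead. ABF4, a bZIP factor of hormone-responsive promoters, averaged 77.5 ± 1.43 CPM in slnor and 44.5 ± 1.07 CPM in WT at the later stage (0.80, SE 0.039, adjusted p = 1.79e-11). At breaker it averaged 82.2 ± 2.07 CPM in slnor and 56.1 ± 1.53 CPM in WT (0.55, SE 0.038, adjusted p = 2.52e-09). AREB1, of the same family, was lower at the later stage (−0.27, SE 0.064, adjusted p = 0.00166) and did not pass at breaker (−0.14, adjusted p = 0.0634, or 0.0349 without slnor replicate 3).

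**Figure D5:**
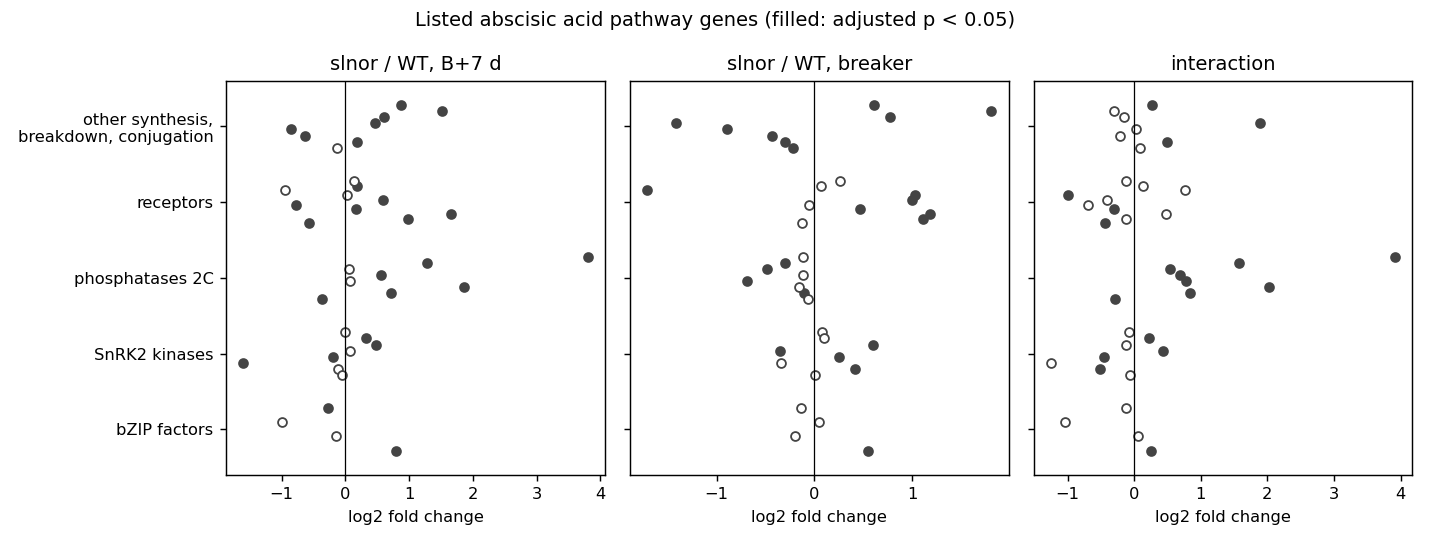
Log2 fold change (x axis) of the 38 tested pathway identifiers by list (rows), for slnor over WT 7 days after breaker (left), slnor over WT at breaker (middle) and the interaction (right), filled where the adjusted p was under 0.05. In the row of phosphatases 2C, 7 filled points lie above 0 and 1 below in the interaction, with Solyc03g007230.4 at 3.92 farthest to the right.

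The gene most like each member over the 12 libraries was sought among 5115 or 5116 genes with a mean of at least 1 CPM and at least a 2-fold range of group means, by Pearson correlation of log2 CPM. The 12 libraries fall into 4 groups, so these values describe likeness of group levels. For NCED1 it was Solyc05g053100.3 (r = 0.993), which averaged 11.9 CPM in slnor and 5.91 CPM in WT at the later stage, and 37.4 CPM in slnor and 36.2 CPM in WT at breaker. For NCED2 it was Solyc01g090680.3 (r = 0.992), at 38.5 CPM in slnor and 11.7 CPM in WT at the later stage, and 35.1 CPM in slnor and 22.9 CPM in WT at breaker. For CYP707A2 it was Solyc08g078670.2 (r = 0.991), at 40.4 CPM in slnor and 17.2 CPM in WT at the later stage, and 44.2 CPM in slnor and 7.22 CPM in WT at breaker. A correlation above 0.95 was reached by 392 genes with NCED1, 155 with NCED2, 55 with CYP707A2 and 0 with CYP707A1. The group means of CYP707A1 spanned only 4.90 to 9.07 CPM, with an SD of 0.924 CPM in slnor at breaker. Such spread within groups limits any correlation with it, so these counts do not show how common each profile is. The gene most like CYP707A1, Solyc03g043750.3, reached r = 0.937, at 107 CPM in slnor and 145 CPM in WT at the later stage, and 58.8 CPM in slnor and 100 CPM in WT at breaker. The tables used here name none of these 4 genes.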

How the data were processed

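RNA from 12 fruit samples was sequenced. The authors deposited a matrix of unnormalized gene counts for the 12 libraries and, for each library, a table in FPKM. The FPKM unit is inferred here and named in no deposited table: the gene length implied by count, value and library total was constant over libraries within 0.421% for 7290 genes (1000 or more counts everywhere). The submitters' processing notes name StringTie, edgeR, HISAT and UMI-tools. Not given in the sources used here: their versions, the genome build, the annotation, the strand setting, and whether counts are reads or collapsed molecules.

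Tests used the counts, in R 4.3.3 with edgeR 4.0.16 (TMM scaling, filterByExpr, glmQLFit and glmQLFTest, 1 fit of all 12 libraries), with adjustment over 20070 genes and calls at an adjusted p under 0.05. Standard errors were obtained from the log2 fold change and the root of the F statistic, and 95% intervals use edgeR's total degrees of freedom. TMM factors spanned 0.9474 to 1.092, with a common biological coefficient of variation of 7.39%. The fit was tested on simulated data. FPKM served for levels per length and for ratios. DESeq2 1.42.0 was an alternative. Sampling noise alone did not account for the differences within any of the 12 replicate pairs (chi-square over its degrees of freedom, 4.66 to 13.8). Same-numbered libraries did not deviate together (correlations −0.03 to 0.039 over 18 pairs).

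The 4 members and all lists were chosen with earlier results of these data known. The rule names all members, the gene most like each, and per list and comparison up to 2 called genes with the largest change and at least 1 CPM. Names were paired with identifiers from published nomenclature and checked against RefSeq symbols of assembly SLM_r2.1 by chromosome and place along it. Of 15 pairs, 14 lay within 5 percentage points (at most 2.0), and the other is not named. No sequences are printed, since the tables used here hold none.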

Additional observations from a re-analysis of the deposited data

Results flagged for a closer look

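The change over 7 days differed between genotypes for 3 of the 4 genes by the interaction term of edgeR's quasi-likelihood test, which was called for 42.2% of all genes tested. For NCED1 the stage change was 0.52 higher in slnor than in WT on the log2 scale (adjusted p = 1.22e-04), with a fall of 0.79 in slnor and of 1.31 in WT. For NCED2 it was 0.93 higher in slnor (adjusted p = 5.94e-05), with −0.01 in slnor and −0.93 in WT. For CYP707A2 it was −0.73 (adjusted p = 2.63e-07), with 0.02 in slnor and 0.75 in WT. In each case all libraries of the later WT group lay on one side of all WT libraries at breaker, and for NCED2 and CYP707A2 the slnor stages overlapped.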

How the results depend on the processing

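Alternatives were DESeq2 size factors, library totals alone, no low-count filter, the DESeq2 Wald test, a fit of only the groups compared, the replicate number as a block, and leaving out each library. Of 356 recomputed member changes, 347 kept their direction where called and their side of the threshold. The other 9 came into a call: NCED1 at breaker with library totals alone (0.21); CYP707A1 with only the groups compared, in WT over time (0.26) and between genotypes at the later stage (−0.25); and 6 with 1 library left out. Those ranges were −0.03 to 0.11 for NCED1 at breaker, 0.21 to 0.34 for CYP707A1 over time in WT, 0.28 to 0.53 for its interaction, −0.32 to −0.19 for it at the later stage, and −0.04 to 0.10 for CYP707A2 over time in slnor. Of these 6, 5 came from leaving out slnor replicate 2 at breaker and the other from leaving out WT replicate 2 of the later stage. Fewer samples are then fitted. Without slnor replicate 2 at breaker, the SE of CYP707A1 went from 0.12 to 0.099 over time in WT and to 0.098 at the later stage. Neither comparison contains that library, but all groups share 1 fit. The cause was not tested.

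With library totals alone, the median over all genes became 0.20 (log2) between genotypes at breaker and to 0.10 at the later stage. The share of called genes that were higher became 74.9% against 51.9% with TMM at breaker, 64.3% against 51.0% at the later stage, 36.7% against 50.2% over time in slnor and 41.6% against 51.7% for the interaction. With that scaling ABI2 at breaker turned to 0.06. The replicate block gave 9730 calls at breaker and 11045 at the later stage and changed no member's call. Same-numbered libraries did not deviate together, but the sample titles do not say whether a number marks anything shared.

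With means of log2 values in place of sums, the log2 ratio difference between genotypes turned to 0.04 at breaker and moved to 0.94 at the later stage, to −1.64 over time in WT and to 0.91 for the interaction. This gives NCED2 and CYP707A1 equal weight. Of 2403 recomputed pathway gene changes, 74 lost and 32 gained a call, and 1 (ABI2, above) turned its sign and also lost its call. Counts of 140 to 665 limit NCED2 and CYP707A1.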

Other observations

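The later slnor libraries, set beside WT at breaker as values outside the compared pairs, had lower NCED1 (255 to 278 CPM against 431 to 467 CPM) and higher CYP707A2 (326 to 338 CPM against 136 to 140 CPM). NCED2 was also higher in the later slnor libraries (8.07 to 9.59 CPM against 5.11 to 5.65 CPM), while CYP707A1 overlapped (7.15 to 7.89 CPM against 6.79 to 7.96 CPM). Their ratio of summed synthesis to summed breakdown FPKM was 0.865 to 0.919, against 3.23 to 3.61 in WT at breaker.

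In slnor at breaker, replicate 2 had the lowest NCED1 (406 CPM, against 479 and 510 in the other two), the highest CYP707A2 (365 CPM, against 304 and 318) and the highest CYP707A1 (5.96 CPM, against 4.25 and 4.49). Its synthesis to breakdown ratio was 1.23, against 1.74 and 1.76.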
